A study of Mus musculus with 14 samples.

Results

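The RNA of the control mouse thymus was compared with that of both control endothelia of the study, the liver sinusoidal endothelial cells (LSEC) and the lung endothelial cells (lung EC). The members are the 7 control arrays out of 14: 2 of thymus (replicates 1 and 2), 3 of LSEC (replicates 1 to 3) and 2 of lung EC (replicates 1 and 2), and the readout is every probe set of the array that carries a single gene symbol. The rule behind the choice of samples used the labels only, so no measured value chose them. The study as a whole asked what the FoxO transcription factors do in these lineages. All 7 samples carried floxed alleles on the FVBn background, written Fk1 L/L, Fk2 L/L and Afx L/L for the genes now called Foxo1, Foxo3 and Foxo4, and were MxCre-, so the floxed genes had no Cre driven by the interferon-inducible Mx1 promoter to act on them. The other 7 arrays are MxCre+ and enter only as a second look at the same contrast. The labels describe the thymus as a tissue and both endothelia as isolated cells, and give no age, no method of isolation and do not say whether replicates are different animals. The p-values therefore describe the scatter among these samples, which may be technical within each endothelium. The thymus replicates differed in sex-linked genes, as given below, and so were not repeats of the same RNA.

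The thymus is the organ in which blood-borne precursors become T cells. Developing T cells, the thymocytes, rearrange their antigen receptor genes with the recombinase of RAG1 and RAG2, pass through a stage that carries both CD4 and CD8, and are selected on peptides presented by MHC molecules of thymic epithelial and dendritic cells. Endothelial cells line blood vessels, and their identity rests on ETS and SOX transcription factors, on receptors for VEGF and angiopoietins, and on junction proteins such as VE-cadherin. Sinusoidal endothelium of the liver is additionally a scavenging tissue that clears macromolecules from blood.

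Levels are log2 values after quantile normalisation over the 7 arrays. A gene is represented by its brightest probe set, and where that set was not called but another set of the same gene was, the other value is given as well. Group values are given as the mean, in places with ± SD, with n = 2 for thymus, n = 3 for LSEC and n = 2 for lung EC. A difference is the thymus mean minus the average of the LSEC mean and the lung EC mean, ± its standard error, with an adjusted p from limma (Benjamini-Hochberg over all probe sets tested). A gene was called higher or lower when its adjusted p was below 0.05 and the difference was at least 2-fold. Genes were tested when their highest group mean reached 6.35, and a group below that limit is near the background of the array, so that the size of a difference from it is uncertain. In a bulk sample, fewer cells of a type and less RNA per cell cannot be told apart.

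The 4 marker genes fixed for the label check separated the groups in the direction of the labels. Rag1, the catalytic subunit of the V(D)J recombinase, stood at 12.85 and 12.88 in the thymus arrays, 4.53, 3.88 and 2.68 in the LSEC arrays and 4.34 and 0.98 in the lung EC arrays. The thymus arrays lay close together at the top of the scale, whereas all 5 endothelial arrays lay below the testing limit. The difference of 9.68 ± 0.88, adjusted p = 8.49e-05, corresponds to 823-fold, a size that depends on the low endothelial values. Cd3e, a signalling chain of the T cell receptor complex, reached 10.80 and 10.77 in the thymus arrays, 7.74, 8.36 and 6.93 in the LSEC arrays and 6.61 and 7.89 in the lung EC arrays. Its groups did not overlap, but the 5 endothelial arrays were above the testing limit and scattered over more than 1 log2 unit. The difference was 3.32 ± 0.44, adjusted p = 5.65e-04. Of the endothelial markers, Cdh5 (VE-cadherin, the adhesion molecule of endothelial junctions) measured 6.05 and 6.54 in the thymus arrays, 12.35, 12.38 and 12.28 in the LSEC arrays and 11.20 and 10.92 in the lung EC arrays, a difference of -5.41 ± 0.15, adjusted p = 8.73e-07. Pecam1 (CD31, an adhesion molecule of endothelium that some leukocytes also carry) measured 7.94 and 7.71 in the thymus arrays, 10.31, 10.84 and 10.52 in the LSEC arrays and 10.29 and 9.88 in the lung EC arrays, a difference of -2.49 ± 0.18, adjusted p = 2.63e-05. Both were lower in both thymus arrays than in every endothelial array. Cdh5 was near the testing limit in thymus, while Pecam1 stayed more than 1 log2 unit above it.

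**Figure D1:**
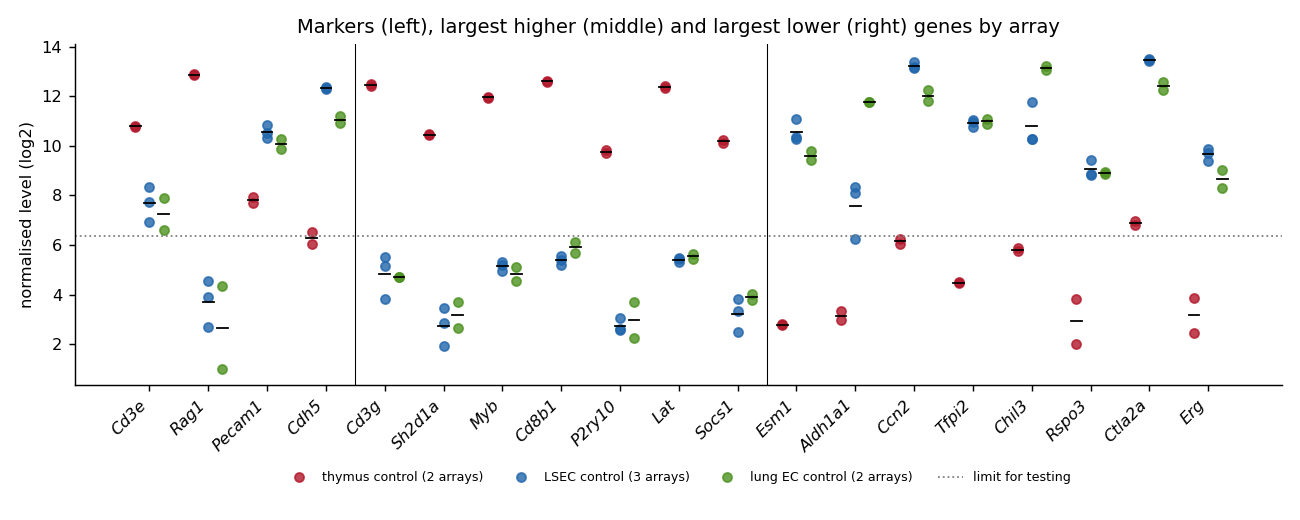
Normalised level (log2) in each of the 7 control arrays for the 4 marker genes, the largest higher and the largest lower genes; each dot is an array, each short line a group mean, and the dotted line is the testing limit of 6.35. The thymus dots lie above all endothelial dots for Cd3e, Rag1 and the middle block, and below them for Pecam1, Cdh5 and the right block.

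Correlations across probe sets were 0.970 to 0.986 between arrays of a group, 0.817 to 0.842 between LSEC and lung EC arrays, and 0.595 to 0.624 between thymus and endothelial arrays. The LSEC arrays were the most scattered, with a median SD of 0.146 against 0.0828 in lung EC and 0.0866 in thymus. LSEC replicate 3 stood apart in genes of blood cells. Its mean over the 18 macrophage and dendritic markers was 9.59, against 8.74 and 8.80 in the other LSEC arrays, and its mean over the 21 haematopoietic genes was 9.0, against 8.08 and 8.2. The thymus replicates differed in sex-linked genes. Xist, the RNA of the inactive X chromosome, was 13.13 and 7.22 in the thymus arrays, 6.78, 7.29 and 6.77 in the LSEC arrays and 6.65 and 6.42 in the lung EC arrays, and the Y-linked Eif2s3y was 1.84 and 9.01 in the thymus arrays, 8.81, 8.42 and 8.69 in the LSEC arrays and 8.99 and 8.99 in the lung EC arrays. Thymus replicate 1 thus had high Xist and little Eif2s3y, and thymus replicate 2 had the pattern of all 5 endothelial arrays. Neither gene passed the test, and without thymus replicate 1 the counts given next changed by less than 1.5 times.

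Of 25763 probe sets tested, 3208 (12.5%) were called higher and 3954 (15.3%) lower in thymus. By gene, 1354 of 14401 (9.40%) were called higher and 2157 (15.0%) lower. The counts of list members given below are to be read beside these shares. The median difference over all genes was -0.081. Both thymus arrays lay above all 5 endothelial arrays for 3802 genes (26.4%) and below all of them for 4789 (33.3%). Among the genes called, 407 were higher and 861 were lower by at least 4-fold, and 88 and 132 by at least 16-fold. For 301 of the higher and 841 of the lower genes the thymus mean or the average of both beds was under the testing limit. Their fold is therefore uncertain. All 3 group means reached the limit for 971 of the higher and 1307 of the lower genes. Without LSEC replicate 3 the probe sets called numbered 7144, against 7162 with it.

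**Figure D2:**
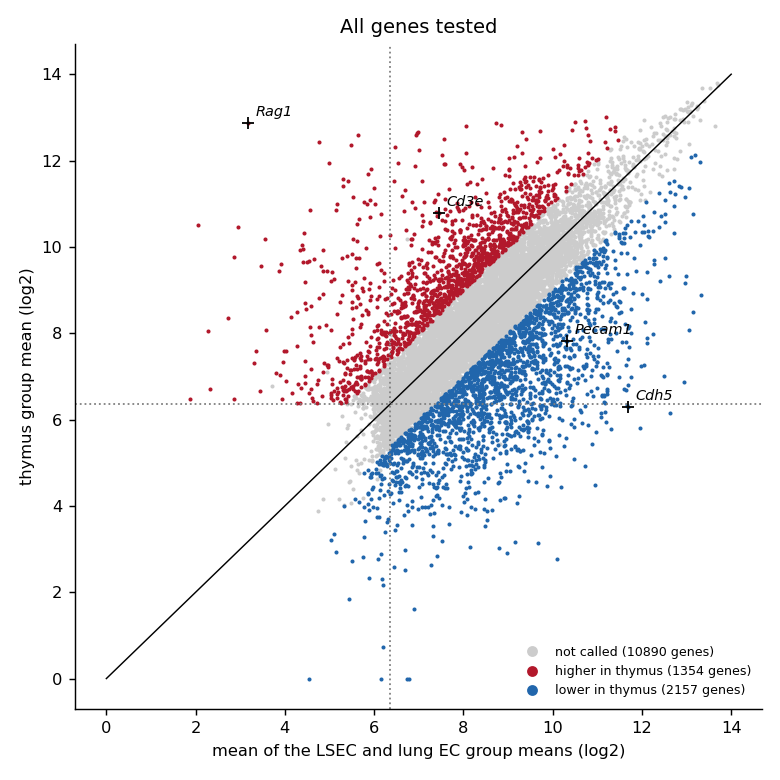
Thymus group mean against the average of the LSEC and lung EC group means (log2) for the 14401 genes tested; red and blue dots are the 1354 genes called higher and the 2157 called lower, dotted lines mark the testing limit of 6.35, and the crosses are the markers. Rag1 lies far above the diagonal, Cdh5 and Pecam1 lie below it, and the few dots at 0 are values at the floor of the deposited scale.

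The gene lists were chosen with earlier results of these data known, so their counts describe the lists and are no independent support. Among the lists, that of the receptor of T cells and its coreceptors was the most uniformly higher. All 14 listed genes were called higher, all with both thymus arrays above every endothelial array, and the median difference was 5.67 against -0.081 over all genes. Cd3g, which with Cd3d and Cd3e forms the signalling module of the receptor, measured 12.48 and 12.39 in the thymus arrays, 3.84, 5.17 and 5.51 in the LSEC arrays and 4.72 and 4.70 in the lung EC arrays, and Cd8b1, the beta chain of the CD8 coreceptor, measured 12.57 and 12.62 in the thymus arrays, 5.40, 5.55 and 5.18 in the LSEC arrays and 5.68 and 6.14 in the lung EC arrays. The thymus arrays agreed to within 0.1 for both genes, and the endothelial arrays all lay below the testing limit. The differences were 7.66 ± 0.41, adjusted p = 7.55e-06, and 6.95 ± 0.15, adjusted p = 5.12e-07. Cd8a, the alpha chain, was measured above the limit in every group and stood at 12.63 ± 0.0043 in thymus, 6.98 ± 0.16 in LSEC and 6.95 ± 0.093 in lung EC, a difference of 5.67 ± 0.11, adjusted p = 4.29e-07, or 50.8-fold. The costimulatory receptor Cd28 (6.29), Cd3d (6.10) and the adhesion molecule Cd2 (5.89) were also among the largest. Ptcra, the invariant partner of the early T cell receptor beta chain, differed by 2.46 ± 0.09, adjusted p = 1.96e-06, and its thymus level of 7.97 was the lowest of the list. The smallest difference in the list was that of Cd6, at 10.80 in thymus, 9.03 in LSEC and 9.31 in lung EC. The probe sets assigned to the alpha-chain variable segment Trav9d-3, whose family members are near-identical in sequence, were all called higher: the brightest stood at 12.50 ± 0.039 in thymus, 7.80 ± 0.09 in LSEC and 7.32 ± 0.35 in lung EC, and which segments it detects is uncertain.

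The signalling proteins below the receptor were higher in part. Of 23 listed genes 20 were tested, 13 were called higher and none lower, with a median difference of 2.03. Lat, the membrane scaffold of the receptor signal, measured 12.34 and 12.39 in the thymus arrays, 5.47, 5.43 and 5.32 in the LSEC arrays and 5.63 and 5.45 in the lung EC arrays, which is 119-fold (difference 6.89 ± 0.092, adjusted p = 3.14e-07). Its 5 endothelial values all fell within 0.4 of each other and under the testing limit. Sh2d1a, the adaptor SAP, differed by 7.49 ± 0.44, adjusted p = 1.07e-05, Themis, a protein required for thymocyte selection, by 6.27 ± 0.17, adjusted p = 8.23e-07, the adaptor Skap1 by 5.83 and the kinase Prkcq by 4.64. For some genes the reading depended on the probe set. Zap70, the kinase recruited to the phosphorylated receptor, measured 9.49 in thymus, 9.13 in LSEC and 9.10 in lung EC by its brightest probe set, a difference of 0.38, but its other 2 probe sets were called higher, by 5.23 and 4.89, from levels under the limit in both endothelia. The mean over its probe sets differed by 3.50. Vav1 and Lcp2, which act in several blood lineages, differed by 0.33 and 0.64 by their brightest and by 2.94 and 1.39 by another probe set that was called higher. Plcg1 differed by 0.66, below 2-fold, and no probe set of it was called.

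The genes that rearrange the receptor loci ranged from far higher in thymus to little changed. Of 14 listed genes 12 were tested and 5 were called higher, with a median of 0.86. Rag2, the partner of RAG1, stood at 9.92 ± 0.092 in thymus, 4.92 ± 0.31 in LSEC and 4.78 ± 0.014 in lung EC, a difference of 5.07 ± 0.16, adjusted p = 1.29e-06. Dntt, the terminal transferase that adds untemplated bases at receptor junctions, measured 12.63 and 12.55 in the thymus arrays, 7.36, 7.31 and 7.39 in the LSEC arrays and 6.57 and 6.47 in the lung EC arrays. It was thus above the limit in every array, though close to it in lung EC, where the size of the fold is uncertain. Its level was 50.2-fold higher in thymus, with a difference of 5.65 ± 0.081, adjusted p = 3.14e-07. Xrcc6, a Ku subunit, was higher by 3.42 and Hmgb2, a cofactor of RAG cleavage, by 3.15. The remaining members of the end-joining machinery, which every cell uses, were not called. Xrcc5, the other Ku subunit, differed by 0.76, Prkdc by 0.88 and Lig4 by 0.85. These genes had an adjusted p below 0.05 and missed only the 2-fold limit. Xrcc4 differed by 0.087 and Nhej1 by -0.059.

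Of 23 transcription factors of the T lineage, 21 were tested, 14 were called higher and 1 lower, with a median of 2.04. Myb, needed for thymocyte survival and proliferation, measured 11.97 and 11.93 in the thymus arrays, 4.94, 5.19 and 5.30 in the LSEC arrays and 5.13 and 4.53 in the lung EC arrays, and all 3 of its probe sets were called higher. Gfi1 differed by 6.08 ± 0.43, adjusted p = 2.57e-05, Bcl11b, which fixes T cell commitment, by 5.81 ± 0.13, adjusted p = 5.12e-07, Gata3 by 5.06 ± 0.14, adjusted p = 9.17e-07 and Ikzf1 (Ikaros) by 4.97 ± 0.43, adjusted p = 6.40e-05. Ikzf1 was above the limit in LSEC replicate 3 (7.75) and below it in LSEC replicate 2 (5.96), the same order as for the haematopoietic genes. Ets1 was high everywhere, at 12.58 in thymus, 11.30 in LSEC and 10.28 in lung EC, and still higher in thymus by 1.80. Runx1 differed by 0.21 by its brightest probe set, while 3 of its 6 were called higher, by 1.98 to 3.02, and their mean differed by 1.45. Runx3 (-0.17) and Zbtb7b (0.11) were below 2-fold, and Hhex, a homeobox factor of early blood and endothelium, was the member called lower (-2.69).

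Promoter windows of genes at both ends of the contrast are shown because their members move together. Each runs from 250 bases before to 50 after the RefSeq transcript start in build GRCm38.p6. Capitals mark TGTGGT (the core bound by RUNX factors) and CAGGTG (an E-box bound by E proteins) on either strand. Of the 4 markers, Cd3e and Rag1 have a window in the table used here. Erg stands for the endothelial end, as the gene in an endothelial list with the largest difference that has a window. The windows are chr9:45009562-45009861 (Cd3e), chr2:101649483-101649782 (Rag1) and chr16:95586544-95586843 (Erg), all on the minus strand.
Cd3e: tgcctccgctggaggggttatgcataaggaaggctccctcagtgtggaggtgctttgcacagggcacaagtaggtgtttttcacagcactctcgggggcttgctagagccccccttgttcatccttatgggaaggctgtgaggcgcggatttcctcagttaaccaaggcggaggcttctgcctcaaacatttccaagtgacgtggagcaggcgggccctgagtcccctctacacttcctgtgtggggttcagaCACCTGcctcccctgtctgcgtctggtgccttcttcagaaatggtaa
Rag1: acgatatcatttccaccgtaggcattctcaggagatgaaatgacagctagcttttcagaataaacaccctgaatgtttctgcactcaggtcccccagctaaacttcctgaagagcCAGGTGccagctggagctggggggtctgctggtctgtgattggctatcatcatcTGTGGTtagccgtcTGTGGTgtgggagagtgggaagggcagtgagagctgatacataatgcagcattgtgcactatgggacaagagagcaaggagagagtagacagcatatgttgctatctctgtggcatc
Erg: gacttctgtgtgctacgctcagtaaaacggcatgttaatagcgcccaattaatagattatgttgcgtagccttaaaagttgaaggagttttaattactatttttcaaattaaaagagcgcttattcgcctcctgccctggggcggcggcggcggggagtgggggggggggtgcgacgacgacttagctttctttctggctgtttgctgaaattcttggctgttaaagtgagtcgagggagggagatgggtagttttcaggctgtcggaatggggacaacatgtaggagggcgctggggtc
The Rag1 window holds 2 matches of TGTGGT and 1 of CAGGTG, the Cd3e window 0 and 1, and the Erg window 0 and 0. The shares of windows that hold a motif were similar between the groups of genes, and no test was made. TGTGGT was present in 12.4% of the 1069 genes called higher with a window, in 12.3% of the 1671 called lower and in 12.9% of all 11459 tested genes with a window. CAGGTG was present in 19.0%, 15.7% and 18.4%, the ETS core GGAA in 95.3%, 95.3% and 95.5%, GATAA in 16.3%, 17.2% and 17.2%, the forkhead motif GTAAACA in 2.99%, 2.27% and 2.64%, and CACCC in 65.7%, 65.9% and 63.0%. Motifs were searched on both strands, and a match describes these letters and not a bound site. The median ratio of observed to expected CpG was 0.769 in the genes called higher, 0.683 in those called lower and 0.727 in all, at median GC contents of 61.0% and 60.7% in the genes called higher and lower.

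Stage markers of thymocytes went both ways. Of 12 immature-stage genes tested, 5 were called higher and 4 lower. Besides Dntt and Ptcra, Arpp21 was higher by 5.19 ± 0.096, adjusted p = 4.20e-07. The 4 called lower were Kit, Cd44, Hes1 and Flt3. Kit, the stem cell factor receptor of the earliest precursors, measured 6.44 and 5.87 in the thymus arrays, 10.03, 9.96 and 9.20 in the LSEC arrays and 10.08 and 9.78 in the lung EC arrays, a difference of -3.67 ± 0.27, adjusted p = 2.91e-05. Cd44 differed by -1.81, and both genes were lower in both thymus arrays than in every endothelial array. Of 12 tested genes of mature thymocytes, 5 were called higher and 1 lower. Ccr7, the chemokine receptor that guides selected cells to the medulla, measured 8.75 and 7.94 in the thymus arrays, 2.99, 3.26 and 3.23 in the LSEC arrays and 2.57 and 2.04 in the lung EC arrays. Cd69, which marks cells that have just received a receptor signal, was higher by 5.15 ± 0.28, adjusted p = 7.92e-06. S1pr1, the receptor for thymic exit and also a major endothelial receptor, measured 7.43 and 7.03 in the thymus arrays, 11.48, 11.56 and 11.23 in the LSEC arrays and 10.06 and 9.82 in the lung EC arrays, a difference of -3.45 ± 0.15, adjusted p = 3.58e-06. Gimap3 and Gimap4 were higher by 2.36 and 1.37, and Il7r, at 9.08 in thymus, 8.84 in LSEC and 7.62 in lung EC, was below 2-fold by its brightest probe set and called higher by the other (1.81). With all probe sets of a gene averaged, 8 genes of the mature list were called higher instead of 5.

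The thymus samples also carried the RNA of thymic stroma. Of 18 tested markers of thymic epithelium 9 were called higher and none lower, with a median of 1.44. Ccl25, the chemokine of cortical epithelium that attracts precursors, measured 11.78 and 11.82 in the thymus arrays, 6.10, 6.08 and 5.99 in the LSEC arrays and 6.17 and 5.46 in the lung EC arrays. Prss16, a thymus-specific protease of the cortex, differed by 5.23 ± 0.24, adjusted p = 4.02e-06, Tbata by 5.08 ± 0.22, adjusted p = 3.18e-06, the keratin Krt5 by 4.48 ± 0.22, adjusted p = 5.26e-06 and the transcription factor Pax1 by 3.79 ± 0.15, adjusted p = 2.67e-06. Foxn1, the master regulator of thymic epithelium, measured 7.36 in thymus, 6.76 in LSEC and 7.0 in lung EC, a difference of 0.48 by its brightest probe set. Its other probe set was about as bright in thymus, at 7.30, but under the limit in both endothelia, and was called higher by 3.29. Aire, the factor of medullary epithelium, differed by 0.84 (1.44, past the 2-fold limit, without thymus replicate 2). Epcam differed by -0.055 by its brightest probe set and by 0.44 with its probe sets averaged, both below 2-fold. Adipoq, made by fat cells, was 7.58 ± 0.64 in thymus, 4.12 ± 0.15 in LSEC and 3.83 ± 0.25 in lung EC, a difference of 3.61 ± 0.24, adjusted p = 2.11e-05, and Fabp4, which fat cells and capillary endothelium express, was lower in thymus (difference -2.39).

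Most genes of blood cells in general were higher in thymus. Of 21 tested, 17 were called higher and none lower, with a median of 2.17. Coro1a, an actin regulator of leukocytes, stood at 12.80 ± 0.025 in thymus, 7.75 ± 0.55 in LSEC and 8.37 ± 0.15 in lung EC, Itgal (the integrin LFA-1) differed by 4.44 ± 0.24, adjusted p = 7.37e-06, Ptprc (CD45) by 3.98 ± 0.30, adjusted p = 3.58e-05, and Cd52 by 3.35. Ptprc was at 8.97 in LSEC and 8.74 in lung EC, well above the testing limit. Markers of macrophages and dendritic cells ran the other way. Of 18 tested, none was called higher and 9 were called lower in thymus, with list means of 7.71 to 7.73 in thymus, 8.74 to 9.59 in LSEC and 8.88 to 8.96 in lung EC. Marco, a macrophage scavenger receptor, measured 5.56 and 5.45 in the thymus arrays, 7.87, 8.04 and 9.94 in the LSEC arrays and 11.10 and 11.35 in the lung EC arrays, and Cd14 measured 6.81 and 6.57 in the thymus arrays, 10.19, 10.48 and 10.15 in the LSEC arrays and 9.56 and 9.51 in the lung EC arrays. Adgre1, a macrophage surface receptor, was 7.10 and 7.08 in the thymus arrays, 9.24, 9.20 and 10.52 in the LSEC arrays and 8.66 and 9.0 in the lung EC arrays, with LSEC replicate 3 the highest array. The part of these cells in the differences was not tested. Of 8 B cell markers none was called, and their list means were 7.14 to 7.15 in thymus, 7.09 to 7.13 in LSEC and 6.75 to 6.81 in lung EC. By adjusted p alone 3 of them were higher and 1 lower, all below 2-fold. Ms4a1 passed the fold limit in the values as deposited (1.10). Of the natural killer list, Gzma was the only gene called (2.25).

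Antigen presentation differed between its classes. Of 7 tested class II genes 5 were called higher, and the median was 4.13. H2-Ab1, the beta chain of the I-A molecule, measured 12.06 and 11.77 in the thymus arrays, 7.18, 6.87 and 7.57 in the LSEC arrays and 7.94 and 7.90 in the lung EC arrays, and H2-Eb1 differed by 4.98 ± 0.24, adjusted p = 4.98e-06, H2-Aa by 4.13 ± 0.23, adjusted p = 8.38e-06 and Cd74, the invariant chain, by 4.14 ± 0.28, adjusted p = 2.09e-05. Ctss, the protease that trims the invariant chain, was called lower (-1.66). In class I, 7 of 15 genes tested were called higher and none lower, with a median of 0.65. Of the immunoproteasome and peptide transporter subunits and their regulator, Psmb8 was higher by 2.98 ± 0.10, adjusted p = 1.66e-06, Psmb9 by 2.52 ± 0.14, adjusted p = 7.72e-06, Psmb10 by 1.98, Tap2 by 2.79 ± 0.11, adjusted p = 2.47e-06 and the transactivator Nlrc5 by 2.05. The chaperones Tapbp, Calr and Pdia3 differed by less than 2-fold. The classical presenting molecules did not pass the 2-fold limit. H2-K1 measured 12.50 and 12.45 in the thymus arrays, 12.82, 12.61 and 12.80 in the LSEC arrays and 11.92 and 12.19 in the lung EC arrays, a difference of 0.071 ± 0.11, adjusted p = 0.595, and H2-D1 and B2m differed by 0.015 and 0.075. The sign of all 3 turned negative with median centring (-0.19, -0.22 and -0.19), and a dimmer H2-D1 probe set was called higher (2.03). H2-T3, the nonclassical thymus leukaemia antigen, stood at 11.31 ± 0.04 in thymus, 6.93 ± 0.18 in LSEC and 6.43 ± 0.055 in lung EC, 24.7-fold higher in thymus. Of 18 interferon-response genes 4 were called higher and none lower, led by Cxcl10 (2.75 ± 0.19, adjusted p = 2.09e-05), and the median of 0.62 was below 2-fold.

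**Figure D3:**
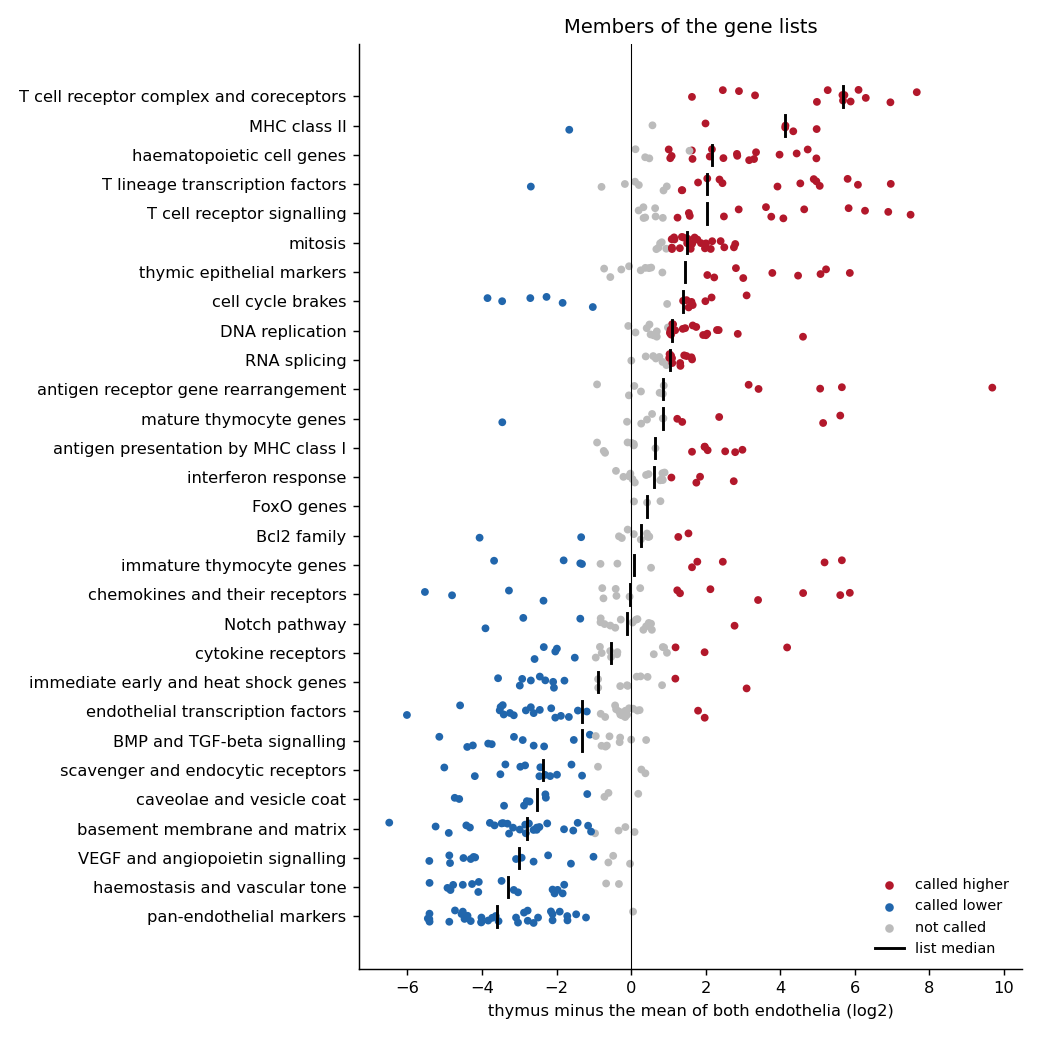
Thymus minus the mean of both endothelia (log2) for each tested member of the gene lists of function and cell type; red and blue dots are members called higher and lower, grey dots members not called, and black bars list medians. The T cell receptor list lies wholly to the right with a median of 5.67, and the pan-endothelial list lies to the left with a median of -3.59.

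Endothelial markers were lower in thymus. Of 34 pan-endothelial markers 33 were called lower in thymus, 32 with both thymus arrays below every endothelial array, and the median was -3.59. Flt1 (VEGF receptor 1) measured 4.50 and 4.43 in the thymus arrays, 10.23, 10.01 and 9.82 in the LSEC arrays and 9.69 and 9.77 in the lung EC arrays, a difference of -5.41 ± 0.12, adjusted p = 5.12e-07. Emcn (endomucin, a surface sialoprotein) differed by -5.45 ± 0.16, adjusted p = 1.13e-06, Procr (the protein C receptor) by -5.40 ± 0.26, adjusted p = 4.85e-06, Tie1 by -4.87 ± 0.18, adjusted p = 2.07e-06, Thbd (thrombomodulin) by -4.51 ± 0.18, adjusted p = 2.46e-06 and Tek (the angiopoietin receptor TIE2) by -4.30 ± 0.16, adjusted p = 2.20e-06. The thymus level was under the testing limit for 20 genes and at or above it for 14, among them Kdr (VEGF receptor 2) at 7.69 and Cd93 at 7.25. The exception was Icam2, an adhesion molecule that lymphocytes share, at 9.89 and 9.72 in the thymus arrays, 9.91, 10.13 and 10.03 in the LSEC arrays and 9.60 and 9.37 in the lung EC arrays, where the arrays overlapped and the difference was 0.052.

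Endothelial transcription factors were lower in part, and the ETS and KLF families were not uniform. Of 34 tested, 18 were called lower and 2 higher, with a median of -1.31. Erg, the ETS factor that maintains endothelial identity, measured 3.87 and 2.44 in the thymus arrays, 9.71, 9.87 and 9.39 in the LSEC arrays and 9.04 and 8.32 in the lung EC arrays, a difference of -6.01 ± 0.39, adjusted p = 1.71e-05. All 3 of the SOX F factors were lower in thymus. Sox17 differed by -4.58 ± 0.20, adjusted p = 3.57e-06, Sox7 by -3.52 ± 0.17, adjusted p = 5.33e-06 and Sox18 by -3.50 ± 0.20, adjusted p = 9.46e-06. Epas1 (HIF-2 alpha) differed by -3.44 ± 0.12, adjusted p = 1.55e-06, and Nr2f2, the venous factor COUP-TFII, by -2.82. The ETS family thus held members on both sides: Ets1 and Ets2 were the genes called higher, Ets2 at 12.14 in thymus, 10.12 in LSEC and 10.21 in lung EC, and Fli1, at 9.32 in thymus, 9.82 in LSEC and 8.71 in lung EC, was not called. Klf2, the flow-responsive factor that also controls T cell exit, differed by -0.11 and was not called, whereas Klf4 (-1.19) and Klf6 (-2.45) were lower. Gata4, a factor of the liver sinusoid, was at 5.0 in thymus, 8.75 in LSEC and 5.53 in lung EC.

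Most genes of vascular growth factor signalling were lower, receptors and ligands alike. Of 16 genes tested, 13 were called lower and none higher; the median was -3.01. Besides Flt1, Flt4 (VEGF receptor 3) measured 5.84 and 5.45 in the thymus arrays, 10.56, 10.76 and 10.42 in the LSEC arrays and 9.92 and 9.46 in the lung EC arrays and Nrp2 differed by -4.22. Among ligands, Pgf differed by -4.85 ± 0.18, adjusted p = 2.01e-06, Angpt2 by -4.18 and Apln by -2.93, while Angpt1 (-0.029) was not called. Vegfa differed by -0.61 by its brightest probe set and by -3.05 by the other, which was called lower. Of 20 BMP and TGF-beta genes tested 11 were called lower and none higher. These included the coreceptor Eng (-3.83), the ligands Bmp2 (-4.39 ± 0.15, adjusted p = 1.49e-06) and Bmp6 (-3.74 ± 0.16, adjusted p = 3.53e-06), the inhibitor Smad6 (-4.24 ± 0.24, adjusted p = 8.86e-06) and the modulator Bmper (-5.14 ± 0.16, adjusted p = 1.24e-06). The mediator Smad1 was below 2-fold by its brightest probe set (-0.95) and called lower by its other 2 (-1.28 and -1.36). Smad3 (-0.29) and Smad5 (0.40) and the receptor Tgfbr1 (0.0023) were below 2-fold. In the Notch list, 1 of 18 genes was called higher and 3 lower, shares not far from the 9.40% and 15.0% of all genes. Notch3 was higher at 10.07 ± 0.10 in thymus, 6.75 ± 0.089 in LSEC and 7.84 ± 0.043 in lung EC, Notch4, the endothelial receptor, was lower at 5.30 ± 0.43 in thymus, 9.16 ± 0.24 in LSEC and 9.24 ± 0.52 in lung EC, and the ligand Jag1 was lower (difference -2.89). Notch1, the receptor that sets T cell fate and also acts in vessels, was 10.42 in thymus, 10.38 in LSEC and 9.35 in lung EC, a difference of 0.56.

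Most genes of vesicle traffic and clearance were lower in thymus. Of 12 genes of caveolae and vesicle coats 9 were called lower, led by Cav2 (-4.73 ± 0.11, adjusted p = 5.35e-07), Cavin2 (-4.61 ± 0.097, adjusted p = 4.86e-07) and Cav1, which coats caveolae and measured 8.08 and 7.94 in the thymus arrays, 11.55, 11.58 and 11.48 in the LSEC arrays and 11.44 and 11.13 in the lung EC arrays. Dnm2, the dynamin that all cells use, differed by 0.19. Of 16 tested scavenger and endocytic receptors 13 were called lower. Lyve1, which binds hyaluronan on sinusoids and lymphatic vessels, measured 6.06 and 6.07 in the thymus arrays, 11.24, 11.65 and 11.11 in the LSEC arrays and 10.95 and 10.69 in the lung EC arrays, a difference of -5.01 ± 0.16, adjusted p = 1.25e-06. Stab1 (stabilin-1) differed by -3.50 ± 0.16, adjusted p = 4.46e-06, Mrc1 (the mannose receptor) by -3.37 ± 0.14, adjusted p = 3.03e-06 and the endocytic adaptor Dab2 by -4.19 ± 0.10, adjusted p = 6.01e-07. Stab2, the related stabilin-2, was high in LSEC alone, at 6.85 in thymus, 11.70 in LSEC and 5.98 in lung EC, so its averaged difference of -1.99 describes neither bed, and the thymus level was above that of lung EC.

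Most genes of matrix, haemostasis and vessel tone were also lower in thymus. Of 30 matrix and basement membrane genes 26 were called lower, with a median of -2.78. Ccn2 (connective tissue growth factor) measured 6.05 and 6.24 in the thymus arrays, 13.19, 13.37 and 13.15 in the LSEC arrays and 12.26 and 11.79 in the lung EC arrays, the largest difference of the list at -6.48 ± 0.15, adjusted p = 5.35e-07. Thbs1 (thrombospondin-1) differed by -5.24 ± 0.19, adjusted p = 1.71e-06, Nid1 (nidogen-1) by -4.89 ± 0.083, adjusted p = 3.14e-07, Sparc by -4.42 ± 0.097, adjusted p = 5.12e-07 and Col4a2, a basement membrane collagen, by -4.32 ± 0.12, adjusted p = 7.76e-07. Fn1 (fibronectin) was 7.98 in thymus, 9.32 in LSEC and 13.26 in lung EC, with lung EC far above LSEC. Of 18 tested genes of haemostasis and tone, 16 were called lower, with a median of -3.31. Edn1 (endothelin-1) measured 5.08 and 5.21 in the thymus arrays, 12.29, 12.38 and 11.96 in the LSEC arrays and 8.27 and 7.59 in the lung EC arrays, a difference of -4.92 ± 0.20, adjusted p = 2.82e-06. F3 (tissue factor) differed by -4.84 ± 0.54, adjusted p = 2.26e-04 and Adm (adrenomedullin) by -4.77 ± 0.12, adjusted p = 6.11e-07. F8, the clotting factor made in the liver sinusoid, was 5.18 in thymus, 9.27 in LSEC and 4.68 in lung EC, so that it too was lower in thymus than in LSEC but not than in lung EC.

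Most genes of the division programme were higher in thymus. Of 28 DNA replication genes tested 19 were called higher and none lower, with a median of 1.11. Of 30 mitosis genes 25 were called higher and none lower, with a median of 1.51. E2f2, a transcription factor of the S phase programme, differed by 4.61 ± 0.11, adjusted p = 5.35e-07 and was the largest, at 10.76 and 10.76 in the thymus arrays, 5.76, 6.0 and 5.96 in the LSEC arrays and 6.51 and 6.28 in the lung EC arrays. Uhrf1, the maintenance methylation cofactor, differed by 2.86 ± 0.23, adjusted p = 4.55e-05, Mcm7, a subunit of the replicative helicase, by 2.35 ± 0.13, adjusted p = 9.99e-06, Top2a by 2.76 ± 0.22, adjusted p = 4.98e-05 and Nusap1 by 2.79 ± 0.18, adjusted p = 1.87e-05. Mki67, the proliferation marker Ki-67, measured 11.21 and 11.24 in the thymus arrays, 7.83, 7.78 and 8.55 in the LSEC arrays and 9.68 and 9.51 in the lung EC arrays. The endothelia were not alike in these lists. The mitosis list mean was 7.05 to 7.59 in LSEC, 8.70 to 8.92 in lung EC and 9.62 to 9.64 in thymus, and the replication list mean was 8.04 to 8.33, 8.75 to 8.84 and 9.81 to 9.84 in the same order. Against lung EC alone the differences were smaller, for example 0.92 for Ube2c, the mitotic ubiquitin-conjugating enzyme, against 3.43 relative to LSEC. Of 19 splicing genes tested 12 were called higher, with a median of 1.05 (6 with median centring in place of quantile normalisation), among them Srsf1 (1.64 ± 0.086, adjusted p = 7.04e-06) and Hnrnpa2b1 (1.62 ± 0.092, adjusted p = 9.67e-06).

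Inhibitors of division were divided between the tissues. Of 15 tested, 8 were called higher and 6 lower. Btg2, an antiproliferative gene, measured 12.47 and 12.53 in the thymus arrays, 8.58, 8.48 and 8.87 in the LSEC arrays and 10.15 and 10.17 in the lung EC arrays, and Cdkn2d, Cdkn2c and Cdkn1b (p27) were higher by 2.16, 1.65 and 1.62. Cdkn2c differed by 2.64 from LSEC but by 0.67, below 2-fold, from lung EC. Cdkn1a (p21) ran the other way, at 7.63 and 7.54 in the thymus arrays, 12.14, 12.01 and 11.99 in the LSEC arrays and 10.88 and 10.76 in the lung EC arrays, a difference of -3.85 ± 0.09, adjusted p = 5.35e-07. Cdkn2b (p15) differed by -3.46 ± 0.10, adjusted p = 1.01e-06, Gadd45g by -2.70 ± 0.22, adjusted p = 5.07e-05 and Gadd45a by -2.27 ± 0.095, adjusted p = 3.00e-06. Of 13 Bcl2 family genes tested 2 were called higher and 2 lower, shares not far from the 9.40% and 15.0% of all genes. Bmf (1.54 ± 0.29, adjusted p = 0.0028) and Bcl2l11 (BIM, 1.27 ± 0.086, adjusted p = 2.17e-05), both of the BH3-only class that promotes death, were the higher ones. The call of Bmf rested on LSEC: it differed by 2.24 from LSEC and by 0.83 (adjusted p = 0.072) from lung EC. Bnip3, a hypoxia-responsive mitophagy receptor, was lower, with a difference of -4.06 ± 0.21, adjusted p = 7.05e-06, and Bcl2l2 by -1.34 ± 0.10, adjusted p = 3.51e-05. Of the survival members, Mcl1 (0.45) and Bcl2l1 (-0.33) were below 2-fold. Bcl2 differed by 0.43 by its brightest probe set, whereas its other 4 were called higher, by 1.26 to 4.39. With all probe sets of a gene averaged, Bcl2 was called (1.88) and Bcl2l11 (1.0) and Bcl2l2 (-0.53) were not.

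Immediate early and heat shock genes, which handling of cells is known to induce, were lower in thymus for 9 of 20 genes. In the same list 2 were higher (1 with median centring), a share near the 9.40% of all genes. Atf3 measured 5.79 and 5.79 in the thymus arrays, 10.77, 10.54 and 11.36 in the LSEC arrays and 7.97 and 7.67 in the lung EC arrays, a difference of -3.57 ± 0.22, adjusted p = 1.30e-05. Fos differed by -2.69 ± 0.12, adjusted p = 4.01e-06 and Jun by -2.92 ± 0.18, adjusted p = 1.50e-05. Hspa1a, an inducible heat shock protein, was 7.50 in thymus, 11.94 in LSEC and 7.20 in lung EC, high in LSEC only. Egr1 (-0.11), Nr4a1 (0.15) and Fosb (-0.09) were not called. The part of cell isolation in these differences was not tested.

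Chemokine genes went both ways. Of 17 genes tested 7 were called higher and 4 lower. Next to Ccl25 and Ccr7, the CCL25 receptor Ccr9 stood at 12.13 ± 0.041 in thymus, 7.51 ± 0.15 in LSEC and 7.52 ± 0.14 in lung EC, a difference of 4.61 ± 0.11, adjusted p = 5.35e-07, and Cxcl12 and its receptor Cxcr4 were higher by 3.40 and 2.13. Ccl2, a monocyte attractant, was lower at 6.38 ± 0.0062 in thymus, 11.94 ± 0.12 in LSEC and 10.42 ± 0.094 in lung EC, and Cxcl1 and the decoy receptor Ackr3 were lower with differences of -2.35 and -3.27. Ackr3 differed by -1.07 from LSEC and by -5.48 from lung EC. Ccl6, which macrophages make, measured 5.68 and 5.86 in the thymus arrays, 9.68, 9.61 and 11.10 in the LSEC arrays and 12.41 and 12.52 in the lung EC arrays. Among 19 tested cytokine receptors 3 were called higher (5 with all probe sets of a gene averaged), led by Il21r (4.18 ± 0.19, adjusted p = 3.84e-06). Over all genes 9.40% were called higher and 15.0% lower. Of the cytokine receptors 5 were called lower, led by Il1r1 (-2.59 ± 0.13, adjusted p = 5.34e-06), Il13ra1 (-2.34 ± 0.11, adjusted p = 4.70e-06) and Il10rb (-2.03 ± 0.093, adjusted p = 4.09e-06, but not called at -0.99 with its probe sets averaged). The genes floxed in these mice differed by less than 2-fold between thymus and endothelium. Foxo1 measured 9.43 and 9.20 in the thymus arrays, 8.96, 8.89 and 8.87 in the LSEC arrays and 8.85 and 8.89 in the lung EC arrays (difference 0.43 ± 0.093, adjusted p = 0.0058), Foxo4 8.08 and 8.08 in the thymus arrays, 7.36, 7.06 and 6.93 in the LSEC arrays and 7.46 and 7.49 in the lung EC arrays (0.79 ± 0.12, adjusted p = 0.0013) and Foxo3 8.92 in thymus, 9.12 in LSEC and 8.56 in lung EC (0.078).

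Averaging the beds hides genes for which they lie on either side of the thymus. For 53 genes the thymus mean was between the beds and at least 1 log2 unit from each, with lung EC above LSEC for 48 and LSEC above lung EC for 5, and 11 of the 53 were called. The genes named are Scgb1a1, Col1a1, Medag, Mgp, Sparcl1 and S1pr3. Scgb1a1, the secretoglobin of airway club cells, measured 5.10 and 4.49 in the thymus arrays, 2.83, 4.26 and 2.58 in the LSEC arrays and 11.72 and 11.58 in the lung EC arrays. Col1a1, a collagen of fibroblasts, measured 6.87 and 6.67 in the thymus arrays, 4.99, 4.92 and 7.08 in the LSEC arrays and 12.11 and 12.18 in the lung EC arrays, and Mgp, matrix Gla protein, measured 9.13 and 8.37 in the thymus arrays, 6.74, 6.78 and 7.05 in the LSEC arrays and 13.74 and 13.74 in the lung EC arrays. Lung EC was the high side for each. Thymus stood above the LSEC mean for each too, and LSEC replicate 3 exceeded both thymus arrays in Col1a1. The call of Col1a1 was lost without thymus replicate 1 (-2.26) and without thymus replicate 2 (-2.05). S1pr3, a sphingosine phosphate receptor of vessels, was 7.71 in thymus, 4.49 in LSEC and 11.32 in lung EC, which averages to a difference of -0.20 (-1.35 and called lower by a dimmer probe set) although thymus differed from LSEC by 3.22 and from lung EC by -3.62. These comparisons share the thymus arrays.

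Markers of other cell types moved with these genes. The 12 lung epithelial markers averaged 8.94 to 9.01 in lung EC, 6.55 to 6.90 in LSEC and 6.51 to 6.67 in thymus, and 5 were called lower in thymus, among them Sftpc, surfactant protein C, at 6.29 and 6.16 in the thymus arrays, 6.46, 6.50 and 6.88 in the LSEC arrays and 12.14 and 12.08 in the lung EC arrays. The 14 fibroblast and mural markers averaged 10 to 10.12 in lung EC, 6.80 to 7.30 in LSEC and 7.73 to 7.83 in thymus. Of them 5 were called lower and 2 higher in thymus (1 higher with median centring). The higher share was not far from the 9.40% of all genes. Pdgfra, a receptor of fibroblasts, was 5.72 in thymus, 6.49 in LSEC and 11.81 in lung EC. The 10 hepatocyte markers with a probe set averaged 5.94 to 6.05 in LSEC and 5.86 to 6.0 in thymus. None of the 6 that were tested was called (Ahsg was called lower, at -1.15, without thymus replicate 1). Alb (albumin), their defining gene, was 5.97 in thymus, 6.75 in LSEC and 5.89 in lung EC. Of the markers of the beds themselves, 11 of 15 LSEC genes and 7 of 15 lung endothelial genes were called lower in thymus. Bed-specific Oit3 was 6.12 in thymus, 11.52 in LSEC and 5.06 in lung EC, and Ptgis was 3.85 in thymus, 5.87 in LSEC and 10.02 in lung EC. The part of epithelial, fibroblast and macrophage RNA in the averaged differences was not tested. Of 12 housekeeping genes 2 were called lower and none higher, the lower share being near the 15.0% of all genes. Actb (0.10), Eef1a1 (0.041) and Hprt (-0.071) were among the 10 not called, although a dimmer Actb probe set was called higher (1.63).

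**Figure D4:**
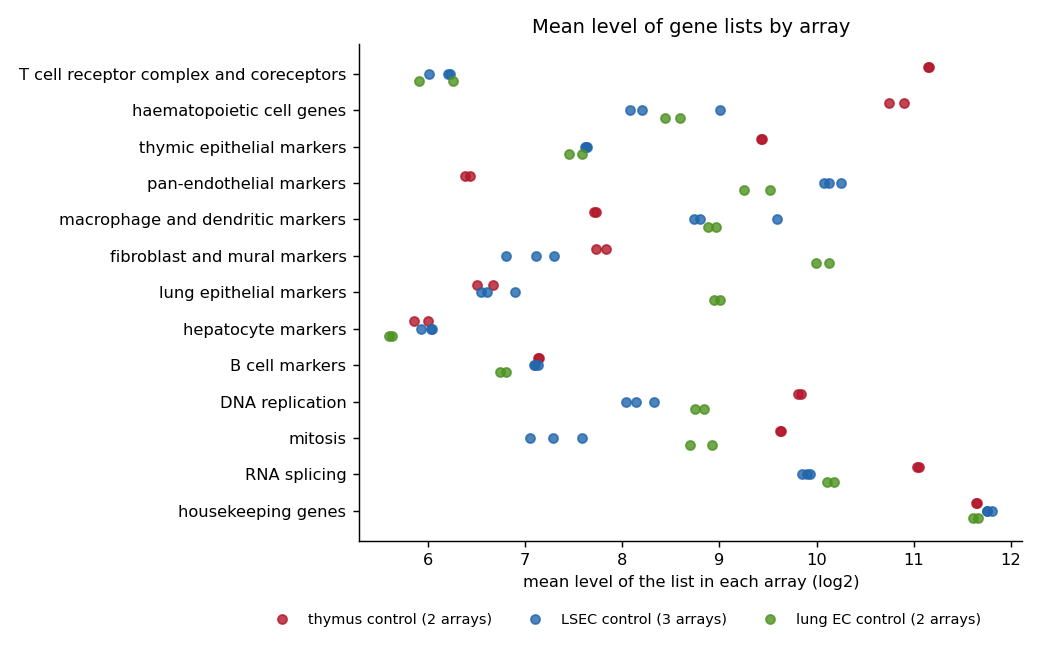
Mean level (log2) of 13 gene lists in each control array, 1 dot per array and 1 colour per tissue. Fibroblast and lung epithelial lists are highest in lung EC, the macrophage list is highest in LSEC replicate 3 at 9.59, and the division lists rise from LSEC over lung EC to thymus.

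Several of the largest differences lay outside these lists. On the thymus side, P2ry10, a lysophospholipid receptor of lymphocytes, measured 9.70 and 9.83 in the thymus arrays, 2.56, 3.04 and 2.63 in the LSEC arrays and 3.71 and 2.27 in the lung EC arrays. Socs1, the inhibitor of cytokine signalling, differed by 6.62 ± 0.32, adjusted p = 5.11e-06, Nsg2 by 6.11 ± 0.16, adjusted p = 6.95e-07 and Glcci1, a glucocorticoid-induced transcript, by 5.86 ± 0.082, adjusted p = 3.14e-07. Glcci1 stood at 12.32 ± 0.021 in thymus, 6.35 ± 0.05 in LSEC and 6.58 ± 0.091 in lung EC. Its LSEC mean was at the limit and LSEC replicate 2, at 6.30, was under it, so the size of its 58.1-fold difference is uncertain. On the endothelial side, Esm1, the proteoglycan endocan of sprouting endothelium, measured 2.76 and 2.80 in the thymus arrays, 10.29, 11.07 and 10.36 in the LSEC arrays and 9.78 and 9.42 in the lung EC arrays, a difference of -7.31 ± 0.23, adjusted p = 1.19e-06. Tfpi2 differed by -6.47 ± 0.11, adjusted p = 3.14e-07, Jcad, a junction protein of endothelium, by -5.81 ± 0.12, adjusted p = 4.86e-07, Fads3 by -5.75 ± 0.13, adjusted p = 5.35e-07 and Tm4sf1 by -5.47 ± 0.13, adjusted p = 5.35e-07. Aldh1a1, a retinal dehydrogenase, at 3.15 in thymus, 7.56 in LSEC and 11.78 in lung EC, Ereg (epiregulin), at 3.02 in thymus, 7.56 in LSEC and 10.02 in lung EC, and Chil3, a macrophage lectin, at 5.80 in thymus, 10.78 in LSEC and 13.14 in lung EC, were highest in lung EC. Their LSEC arrays scattered, with SDs of 1.14, 0.68 and 0.85. LSEC replicate 2 was the lowest LSEC array in Aldh1a1 (6.25) and Ereg (6.78). Rspo3, a WNT enhancer, was at 2.91 in thymus, 9.05 in LSEC and 8.91 in lung EC. Ctla2a and Ctla2b, paralogous protease inhibitors that a probe set may not tell apart, were lower, with differences of -6.06 ± 0.11, adjusted p = 3.93e-07, and -4.78 ± 0.10, adjusted p = 5.12e-07. Mt1 (metallothionein-1) measured 8.10 and 8.03 in the thymus arrays, 12.46, 12.35 and 12.83 in the LSEC arrays and 13.57 and 13.57 in the lung EC arrays, the lung EC values being equal because both had the same rank before normalisation. Hmga2, a chromatin protein, was 6.68 ± 0.19 in thymus, 11.20 ± 0.11 in LSEC and 12.10 ± 0.0076 in lung EC and Anxa3 was 6.72 ± 0.12 in thymus, 12.09 ± 0.11 in LSEC and 11.10 ± 0.20 in lung EC, all 3 above the limit in every group.

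For 50 of the 6519 genes with several tested probe sets, at least 1 probe set was called higher and another lower, and 6 of them are described. The brightest Gcnt2 probe set, of the enzyme that branches blood group I glycans, was higher in thymus at 9.07 ± 0.051 in thymus, 7.69 ± 0.10 in LSEC and 7.26 ± 0.17 in lung EC, while 4 dimmer ones were called lower, with differences of -1.89 to -3.42. The brightest Ehd2 probe set differed by -2.79 and another by 1.91. Prmt3 gave -0.51 by its brightest, 4.42 and -1.71 by others. Tmem255a gave 3.86 and -3.14, Apcdd1 gave 2.05 and -3.83, and Pfpl gave 3.91 and -1.28, with the first of the Pfpl values resting on lung EC values at the floor of 0. Which transcripts these probe sets detect was not analysed here.

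The contrast was computed again in the 7 Cre+ arrays, which are other samples. Of the 1354 genes called higher in control thymus 1084 were called higher in Cre+ thymus and 1352 had the same sign, and of the 2157 called lower 1793 were called and 2148 had the same sign. Rag1 differed by 10.09 in the Cre+ arrays, Cd3e by 3.47, Cdh5 by -4.91 and Pecam1 by -2.15. Among the named genes, the largest gaps between the arms were those of H2-Eb1, at 4.98 in control and 2.37 in Cre+ arrays, Angpt2, at -4.18 and -1.61, Esm1, at -7.31 and -5.16, and Lyve1, at -5.01 and -2.86. The difference between the arms was not tested.

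**Figure D5:**
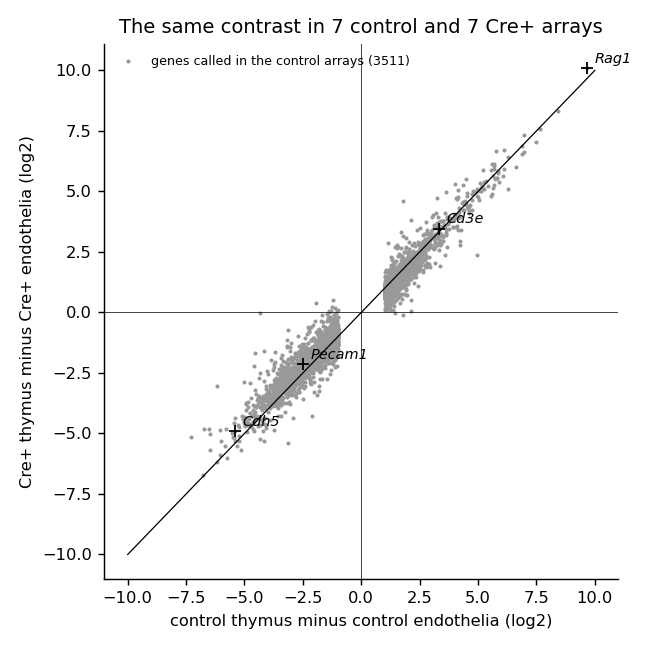
Cre+ thymus minus Cre+ endothelia against control thymus minus control endothelia (log2) for the 3511 genes called in the control arrays; the line marks equal values and the crosses are the 4 markers. Rag1 is at 9.68 in the control and 10.09 in the Cre+ arrays, and Cdh5 is at -5.41 and -4.91.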

How the data were processed

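Per the labels' protocols, total RNA was labelled with biotin by in vitro transcription from an oligo-dT primer and hybridised to Affymetrix mouse expression arrays. The authors deposited 1 value per probe set and array (45101 probe sets), read here as log2 from their range. Their summarisation is not given in the sources used here. The 7 control arrays were quantile normalised without 64 array controls, since their deposited medians spread over 0.255. Probe sets were named from the array annotation (34945 with 1 symbol, 932 with several, 9160 with none). Of 34945, 25763 whose highest group mean reached the 40th percentile of all values, 6.35, were tested. limma 3.58.1 in R 4.3.3 fitted 3 group means (4 residual and 2.79 prior degrees of freedom). The method was tested on simulated data. How it behaves when many probe sets differ, as here (64.3% with adjusted p below 0.05 in limma), was not tested. The number of arrays limits the precision.

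The gene lists and members were chosen with earlier results of these data known. Genes named are the 4 markers, the 12 largest differences in each direction whose arrays do not overlap, the 8 largest with all means at the limit or above, up to 5 called genes per list, 6 between the beds and 6 with disagreeing probe sets. Further list members named in the text, such as Icam2, Ets1, Zap70, Foxn1 and H2-K1, were chosen after their values were seen. Promoter windows are from RefSeq, with the first window taken where a gene has several: 11459 of 14401 tested genes had one. As alternatives, the fit was repeated on median-centred and on deposited values, on all 14 arrays, with other filters, variance models, weights and fold limits, with a replicate block, with all probe sets of a gene averaged, and without each array in turn.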

Additional observations from a re-analysis of the deposited data

How the results depend on the processing

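Changing the normalisation, filter, variance model or weighting, or leaving out any array, kept every count of called probe sets and genes within 1.5 times. The fold limit moved them. Tested against a 2-fold limit (limma's treat), 1905 probe sets and 782 genes were higher and 2539 and 1393 lower. With no fold limit these were 7646 and 3865 higher and 8926 and 5108 lower, and with a 4-fold limit 1102 and 407 higher and 1618 and 861 lower. Scaling moved the median of all probe set differences from -0.056 to -0.132 with median centring and to 0.047 in the values as deposited, and the share of calls that were higher from 44.8% to 40.5% and 50.5%. No pairing by replicate number was seen: deviations of same-numbered samples correlated at -0.069 to 0.080, and with a replicate block 7152 probe sets were called, against 7162. Deviations within a group of 2 arrays mirror each other, so these few correlations cannot exclude pairing. Of 5422 values of 272 named genes under 20 alternatives, 5258 kept their direction and side of the threshold, 70 fell below it, 47 rose above it and 45 others moved, many of them sign changes near 0. Of 1760 counts of list members, 1667 stayed within 1.5 times. Smad1 passed the limits with median centring (-1.09), and Sparcl1 missed the fold limit in the values as deposited (-0.99). S100a9 lost its call without lung EC replicate 1 (1.5), in the fit on all 14 arrays (1.80), in treat and at 4-fold. It was the 1 neutrophil gene called higher, and it did not pass the filter at the 60th percentile or without thymus replicate 1. Without thymus replicate 2, Xist was called higher (6.42) and Eif2s3y lower (-7.0), and without thymus replicate 1 Eif2s3y differed by 0.20. The signs of Gcnt2 (-1.73) and Pfpl (1.31) reversed when all named probe sets of a gene were averaged, since theirs disagree. This averaging changed 25 named genes, more than any alternative except removing the fold limit or raising it to 4-fold. Values under 6.35 are near background, and 231 to 312 values per array are exactly 0.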

Other observations

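The balance of calls depended on which probe set stands for a gene. Among the brightest probe sets, 1354 were called higher and 2157 lower, so that 38.6% of calls were higher in thymus. Among the 11362 other tested probe sets of the same genes, 1854 were called higher and 1797 lower, so that 50.8% were higher. These others were dimmer, with a median level of 7.43 against 8.11. Of the 1854, 859 belonged to genes whose brightest probe set was also called higher, 959 to genes whose brightest was not called, and 36 to genes whose brightest was called lower. Of the 1797 called lower, the corresponding numbers were 1102 with a brightest called lower, 687 not called and 8 called higher. The cause was not tested.

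Blood cell genes outside the T lineage add a few values. Mmp8, a neutrophil collagenase, was 4.55 in thymus, 6.70 in LSEC and 10.87 in lung EC, and S100a9, a neutrophil calcium-binding protein, was 6.44 in thymus, 5.06 in LSEC and 4.22 in lung EC. Pf4 (platelet factor 4) was 7.15 in thymus, 9.74 in LSEC and 10.16 in lung EC, lower in thymus with a difference of -2.80 ± 0.37, adjusted p = 5.20e-04. Epb42, an erythrocyte membrane protein, is listed at 0 in both thymus arrays and stood at 7.02 in LSEC and 6.56 in lung EC, so no fold is given. Gusb, a lysosomal enzyme often used as a reference gene, was lower in thymus with a difference of -1.61 ± 0.21, adjusted p = 5.43e-04, and the glycolytic Pgk1 by -1.05 ± 0.078, adjusted p = 3.19e-05.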
